A study of Mus musculus with 6 samples.

Results

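Late and early healing were compared in mouse skin wounds that had received C-phycocyanin (C-PC), the blue pigment protein with which Spirulina captures light, with 1 RNA sequencing library per stage. Of 26644 genes listed in the tables of the series, 20117 were listed in both the early and the late table, and 16639 of these had at least 10 reads in 1 of the 2 libraries and were compared. The other 3478 genes listed in both tables had fewer reads, 2777 genes were listed early but not late, 2585 late but not early, and 1165 in the middle table alone.

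The series holds 6 libraries from mouse skin, 1 for early, 1 for middle and 1 for late healing with C-PC, and the same without treatment. The 2 libraries compared here came from wounds given C-PC, sampled early and late, and the untreated early and late libraries are set beside them. The labels do not give the strain, age or sex of the animals, the dose and route of C-PC, the days of sampling or whether animals were pooled. With 1 library in each group there is no replicate, no test of the late against the early C-PC library was possible, and each difference describes these 2 libraries.

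The early C-PC library held 16835495 reads on genes and the late one 17033889, and the 6 libraries lay between 15863637 and 18028674. Levels are given as CPM, reads relative to library size after both libraries were scaled together with TMM, edgeR's factor for unequal library composition. A gene was called higher or lower when its late-to-early ratio was at least 2-fold and the exact 95% interval of the ratio, which covers counting error only, excluded equality. By this rule (a library at 0 reads being set to 3) 2746 genes, 16.5% of those compared, were higher late and 3537, 21.3%, were lower late. A gene with fewer than 10 reads in 1 library was compared only through the other, and could be called in 1 direction only. Where many members of a list are such genes, their shared direction is partly set by this rule. The median log2 ratio over all genes compared was 0.03. Genes within 1.5-fold made up 42.4% of those compared. The genes called higher took 3.37% of the early reads and 20.6% of the late ones, and those called lower 40.1% and 10.1%.

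Repair of a skin wound is usually described as overlapping phases of inflammation, formation of granulation tissue and remodelling, during which keratinocytes migrate in and cover the defect. Neutrophils and then macrophages enter early, and fibroblasts lay down a matrix rich in fibrillar collagens while new vessels grow into it. Hair follicles grow in cycles of their own, and a growing follicle builds an inner root sheath and a keratin-filled hair shaft from dividing matrix cells above a dermal papilla. A bulk library mixes all these cells, so fewer cells of a type and less RNA per cell cannot be told apart in any of the values that follow.

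The tissue label was checked against markers of epidermis. In the early C-PC library the basal keratin genes Krt5 and Krt14 had 23 and 32 reads and the upper-layer keratin genes Krt1 and Krt10 had 9 and 28. In the late library the same genes had 25097, 8477, 3487 and 4745 reads. Markers that define the epidermis of skin were thus near 0 early, while genes of skeletal muscle took 0.665% of the early reads and 0.261% of the late ones. The part of this difference in tissue content in the results below was not tested.

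Sequences before the starts of 4 genes are shown because each belongs to a group that stood far apart between the libraries and holds letters known as a binding motif of a factor active in that group. They are the 250 bases before the RefSeq start, 5′ to 3′ on the strand of the gene, build GRCm38.p6, with the motif in capitals. Cxcl2 (chr5:90903649-90903898, plus strand), a chemokine gene of inflammation, holds GGGA and TTTCC with 1 base between them, a form of the site of NF-kB, the factor that switches on many inflammatory genes. Ifit1 (chr19:34640639-34640888, plus strand), an antiviral gene, holds at 2 places on the other strand GAAA and GAAA with 2 bases between them, the core of the interferon-stimulated response element. Krt31 (chr11:100050552-100050801, minus strand), a hair shaft keratin gene, holds a TATAAA box and CTTTGAA, a core bound by Lef1 and Tcf factors of Wnt signalling. Tyr (chr7:87493513-87493762, minus strand), which encodes the pigment enzyme tyrosinase, holds TCATGTG, the core of the M-box bound by the melanocyte factor Mitf.
Cxcl2: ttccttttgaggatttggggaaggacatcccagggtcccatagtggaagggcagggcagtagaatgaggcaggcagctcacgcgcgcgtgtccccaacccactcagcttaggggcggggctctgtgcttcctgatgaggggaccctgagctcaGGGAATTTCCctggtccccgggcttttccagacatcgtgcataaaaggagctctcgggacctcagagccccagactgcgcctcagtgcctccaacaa
Ifit1: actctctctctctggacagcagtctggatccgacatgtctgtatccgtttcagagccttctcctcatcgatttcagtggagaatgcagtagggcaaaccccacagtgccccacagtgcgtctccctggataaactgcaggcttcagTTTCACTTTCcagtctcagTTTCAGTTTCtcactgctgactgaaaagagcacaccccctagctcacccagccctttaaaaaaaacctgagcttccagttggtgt
Krt31: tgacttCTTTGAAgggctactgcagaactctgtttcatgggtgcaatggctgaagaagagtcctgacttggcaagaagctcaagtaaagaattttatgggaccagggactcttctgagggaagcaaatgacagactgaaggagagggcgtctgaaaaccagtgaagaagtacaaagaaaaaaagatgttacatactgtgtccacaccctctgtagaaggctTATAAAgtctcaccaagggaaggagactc
Tyr: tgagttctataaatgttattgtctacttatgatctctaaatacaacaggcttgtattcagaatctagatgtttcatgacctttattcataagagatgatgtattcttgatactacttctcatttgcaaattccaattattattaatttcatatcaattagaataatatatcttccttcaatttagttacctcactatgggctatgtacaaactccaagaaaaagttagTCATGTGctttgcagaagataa

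The same 250 bases were searched on both strands in 27025 RefSeq promoters, 1 per gene symbol. The NF-kB letters were found in 4 of the 17 cytokine and chemokine promoters matched, against 0.337% of all promoters. The interferon letters stood in 6 of 11 promoters of interferon-stimulated genes, against 3.04% of all. TATAAA was held by 40 of 50 promoters of keratin-associated proteins, 8 of 13 of the inner root sheath and 6 of 10 of hair shaft keratins, against 13% of all. CTTTGAA stood in 5 of 10 promoters of hair shaft keratins against 4.64% of all, and TCATGTG in 5 of 8 of melanocyte genes against 3.22%. CCAAT was held by 20 of 22 promoters of cell division genes and 10 of 11 of sterol synthesis genes, against 34.5% of all. A match is a description of letters and does not show a site in use. In all 13 motifs were searched. Of the other 7, 3 were further NF-kB forms with shares of 0.381% to 1.4% of all promoters (GGGAAA before CCC and GGGG before TTTCC, each with 1 base between, and GGG before TTTCC with 2 bases between, which contains the form printed), and the rest gave no set described here: CTTTGAT, a second Lef1 core held by 3.23% of all promoters, the shorter TTTGAA in 16.3%, the E-box CACGTG in 6.05%, and CACCCCAC in 2.51%.

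The plot of levels in the 2 libraries shows where the main groups fell.

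**Figure D1:**
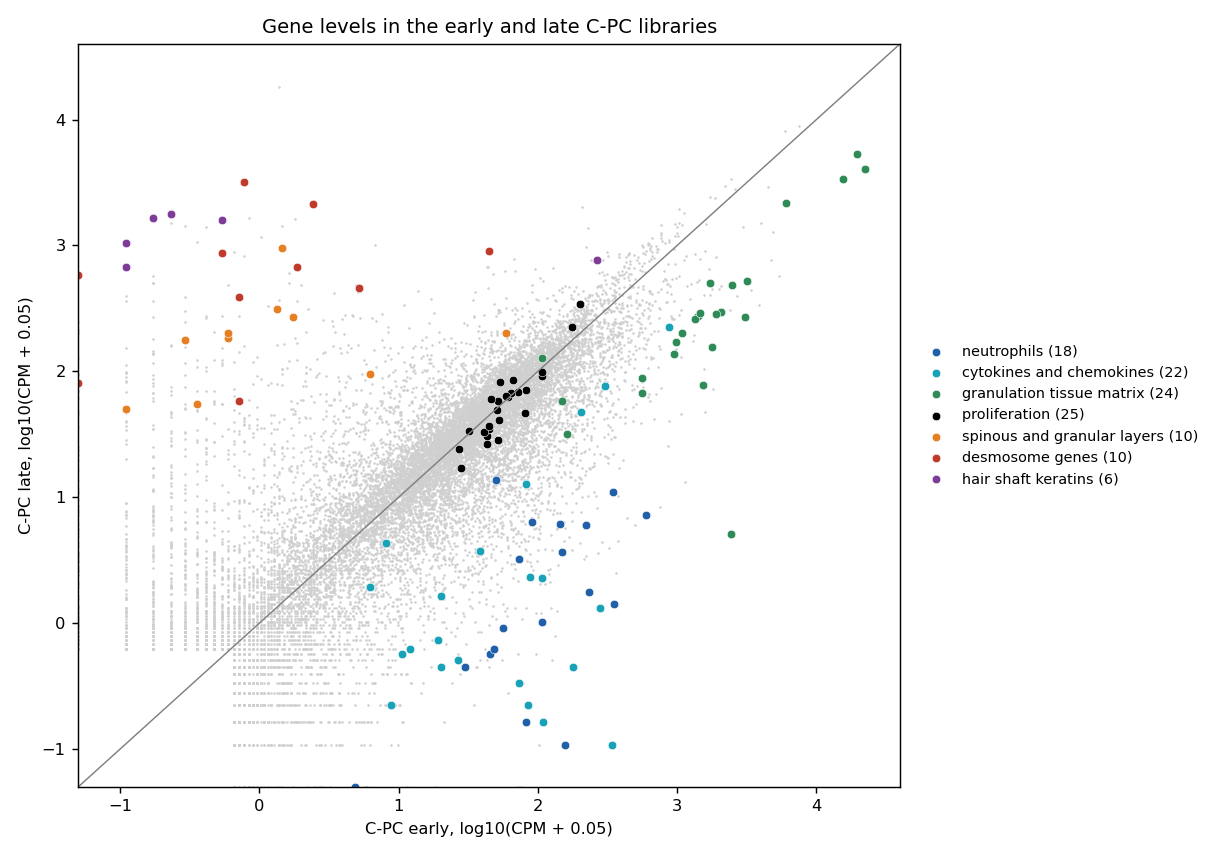
Level of each compared gene in the early (x axis) and late (y axis) C-PC library, as log10 of CPM plus 0.05, 1 library each; the diagonal marks equality and colours mark 7 gene lists with the number of members in brackets. The 18 neutrophil genes lie below the diagonal, the 10 desmosome genes above it and the 25 cell division genes along it.

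Genes of neutrophils, the first white cells to enter a wound, were lower late in all 18 of 18 members compared, with a median log2 ratio of -6.13. S100a9, a calcium-binding alarmin of these cells, had 9742 reads early and 126 late, a log2 ratio of -6.36 (95% interval -6.62 to -6.11). S100a8, its partner, had 5703 and 191 reads (-4.99, -5.20 to -4.78). Clec4e, the receptor Mincle, had 2590 reads early and 1 late (-11.42, -16.73 to -8.95), and Trem1, a receptor that amplifies inflammation, 1341 and 2 (-9.47, -12.52 to -7.62). Ly6g, a surface marker of mouse neutrophils, had 79 reads early and 0 late, at least 27.9-fold lower. The list took 0.271% of the early reads and 0.00651% of the late ones. Il1r2, a decoy receptor for interleukin 1, had the ratio nearest to 0, at -1.87. Stfa2l1, a stefin gene outside the list, had 1242 reads early and 0 late, at least 439-fold lower.

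Granule genes made by granulocyte precursors were sparse in both libraries, and 5 of 10 reached 10 reads. Chil3, a chitinase-like protein, had 2052 reads early and 22 late (-6.63), Ngp 95 and 0, and Ltf, which encodes lactoferrin, 61 and 2. The myeloperoxidase gene Mpo had 8 and 21 reads (1.31, 0.07 to 2.69), and the proteinase gene Prtn3 47 and 55.

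Chemokines and cytokines gave the lowest single ratio, and 21 of the 22 members compared were lower late (median -5.02). Cxcl2, a chemokine that draws neutrophils, had 339 CPM early and 0.0573 late, which rests on 5578 reads and 1 read (-12.53, -17.83 to -10.05). Cxcl3 had 1784 reads early and 2 late, Ccl3 1400 and 3, Cxcl5 2936 and 7 and Ccl4 1195 and 5. Interleukin genes were lower as well: Il1b had 4588 and 22 reads (-7.79, -8.47 to -7.19) and Il6 144 and 3. Il1a, at 133 and 75 reads, was the 1 member that did not pass. Cxcl12, a chemokine made by resting stromal cells, had one of the smaller differences, at 14389 and 3889 reads (-1.97). Of the other members, Csf3 had 217 reads early and was not listed late, and Il24 was listed in neither table. Outside the list, Acod1, which makes itaconate in activated macrophages, had 1679 reads early and 1 late (-10.80, -16.10 to -8.32). Ms4a4c had 2064 and 8 reads.

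Macrophage genes were lower late in 18 of 20 members (median -2.90), with a smaller difference than neutrophil genes. Cd14, a receptor for bacterial lipopolysaccharide, had 12430 reads early and 146 late (-6.50). Lyz2, which encodes lysozyme, had 63500 and 5884 (-3.52), and Csf1r, the receptor that keeps macrophages alive, 8422 and 1327 (-2.75). The scavenger receptor genes Mrc1 and Cd163, linked to resident and repair macrophages, gave -2.21 and -1.69. Gpnmb, a glycoprotein that melanocytes also express, did not pass, with 10451 and 7609 reads. Retnla, a marker of alternative activation that fat tissue also makes, went the other way, with 6 reads early and 338 late (5.73, 4.59 to 7.19).

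Interferon-stimulated genes, which encode antiviral proteins, were lower late in 15 of 15 members (median -4.47). Mx1 had 1270 reads early and 18 late, Rsad2 1856 and 35, Ifit1 1965 and 42, and Ifit3 2744 and 83. Mx1 had the lowest ratio, -6.23. Irf7, a transcription factor of the response, had 5280 and 326 reads.

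Lymphocyte genes had low counts throughout. Of 12 T and NK cell genes compared, 4 were higher and 4 lower. Trbc2, a constant region of the T cell receptor, had 7 reads early and 141 late (4.25), while the granzyme gene Gzmb had 32 and 2 (-4.09). Of 5 B and plasma cell genes, 4 were higher: Igkc, an antibody light chain, had 49 and 846 reads (4.02), and Jchain 17 and 335 (4.22). Among 12 antigen-presentation genes, 7 were lower and 2 higher. H2-Ab1 of the class II complex had 935 and 367 reads, whereas Cd207, the langerin of epidermal Langerhans cells, had 4 and 42 (3.31, 1.84 to 5.25). Of 10 mast cell genes, 3 were lower and 1 higher. The protease gene Cma1 gave -0.21, and mast cell members ran from -4.26 for Hdc to 1.59 for Kit, which melanocytes express too.

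Genes of the granulation tissue matrix were lower late in 23 of 24 members, with a median log2 ratio of -2.45, and took 9.01% of the early reads and 1.96% of the late ones. Col1a1, a chain of type I collagen, had the most reads of any gene early, 366946, and 69980 late, which is 22320 and 4012 CPM (-2.48, -2.49 to -2.46). Col3a1, the collagen III gene, had 321717 and 93052 reads (-1.88), and Fn1, the fibronectin gene, 52087 and 9132 (-2.60). Spp1, which encodes osteopontin and is also made by macrophages, was far lower than the rest, with 40270 and 88 reads (-8.92, -9.24 to -8.62). Tnc, tenascin C, a matrix protein of wound edges, had 25026 and 1348 reads (-4.30). Eln, which encodes elastin, was the 1 member that did not pass, at 107 and 128 CPM.

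Enzymes that modify and fold collagen stood on the same side, with 14 of 15 lower (median -2.44). Serpinh1, the collagen chaperone, had 21754 and 3382 reads (-2.77), and Lox, the cross-linking enzyme counted among matrix genes, 29097 and 2696 (-3.52). The exception was P3h2, a prolyl hydroxylase, with 170 and 109 reads. Of 17 matrix proteases and their inhibitors, 14 were lower. Timp1, an inhibitor of metalloproteinases, had 8145 and 104 reads (-6.38). Mmp9, a gelatinase, had 3665 and 105. Timp3, another inhibitor, was higher late, with 1772 and 4241 reads (1.17, 1.09 to 1.25), while Timp2 and Mmp11 gave -0.60 and 0.81.

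Myofibroblast genes were lower in 5 of 12 members and higher in 1 (median -0.93). Cthrc1, a secreted protein of activated fibroblasts, had 4870 and 526 reads (-3.30), and Acta2, the smooth muscle actin, 6030 and 3280 (-0.96), just short of 2-fold. Lrrc15, the member that was higher (4400 and 13281 reads, 1.51), is also made in the hair shaft and stands in that list too. Of 12 genes of resting dermal fibroblasts, 5 were lower and 2 higher. Pdgfra, a growth factor receptor, had 6270 and 1267 reads, and Pi16, a marker of a fibroblast progenitor state, 664 and 2430 (1.79). Ligands, receptors and targets of TGF-beta were lower in 8 of 15: Tgfb1 had 3259 and 785 reads, the receptor gene Tgfbr2 9506 and 3186, and Smad7, an inhibitor of the pathway, was higher at 317 and 1100 (1.71).

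Endothelial genes were lower late in 12 of 16 members (median -1.60), pericyte genes in 6 of 9 (median -1.46) and angiogenic factors in 8 of 10 (median -1.55), with no member higher in any of these lists. Pecam1, an adhesion molecule of vessels, had 4898 and 1658 reads (-1.65), and Kdr, the main receptor for VEGF, 1957 and 668 (-1.64). Vegfa itself had 1050 and 333 reads (-1.74, -1.92 to -1.56). Apln, a peptide of growing vessel tips, gave the lowest ratio of these lists, -3.79. In the pericyte list Des, which muscle expresses too, had 15497 and 2405 reads, and Cspg4, at 0.98, lay just under 2-fold. Of 9 genes of the hypoxia response, 5 were lower, among them the glucose transporter gene Slc2a1 with 1633 and 410 reads, and 2 were higher, Egln3 (1.02) and Ero1l (1.41).

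Genes of muscle and tendon were mostly lower late. Of 19 skeletal muscle genes compared, 15 were lower and 1 higher (median -1.28). Acta1, the skeletal actin, had 31069 and 14037 reads (-1.23), and Myh4, the fastest myosin heavy chain, 18602 and 229 (-6.43, -6.62 to -6.24). The myosin heavy chain Myh1 differed little, with 4815 and 5319 reads, and Myh2 was higher, with 543 and 2326 (2.01, 1.88 to 2.15). Myh7 had too few reads and Tnnc2 was not listed early. Regulators of muscle regeneration were lower in 9 of 10: Myog, which drives differentiation, had 507 and 60 reads, and Mymk, needed for fusion of myoblasts, 357 and 15. In the tendon list 7 of 8 members were lower, with Thbs4 at 14153 and 445 reads (-5.08). Glycolytic enzymes were lower in 13 of 17 (median -1.49): Pkm had 28159 and 7057 reads (-2.08), Ldha 14883 and 7180 (-1.14), and Aldoc was higher at 68 and 234. Gapdh, with 1706 and 35 reads, shares sequence with many pseudogenes and its value is uncertain.

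The plot of list members orders these groups and those that stood higher late.

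**Figure D2:**
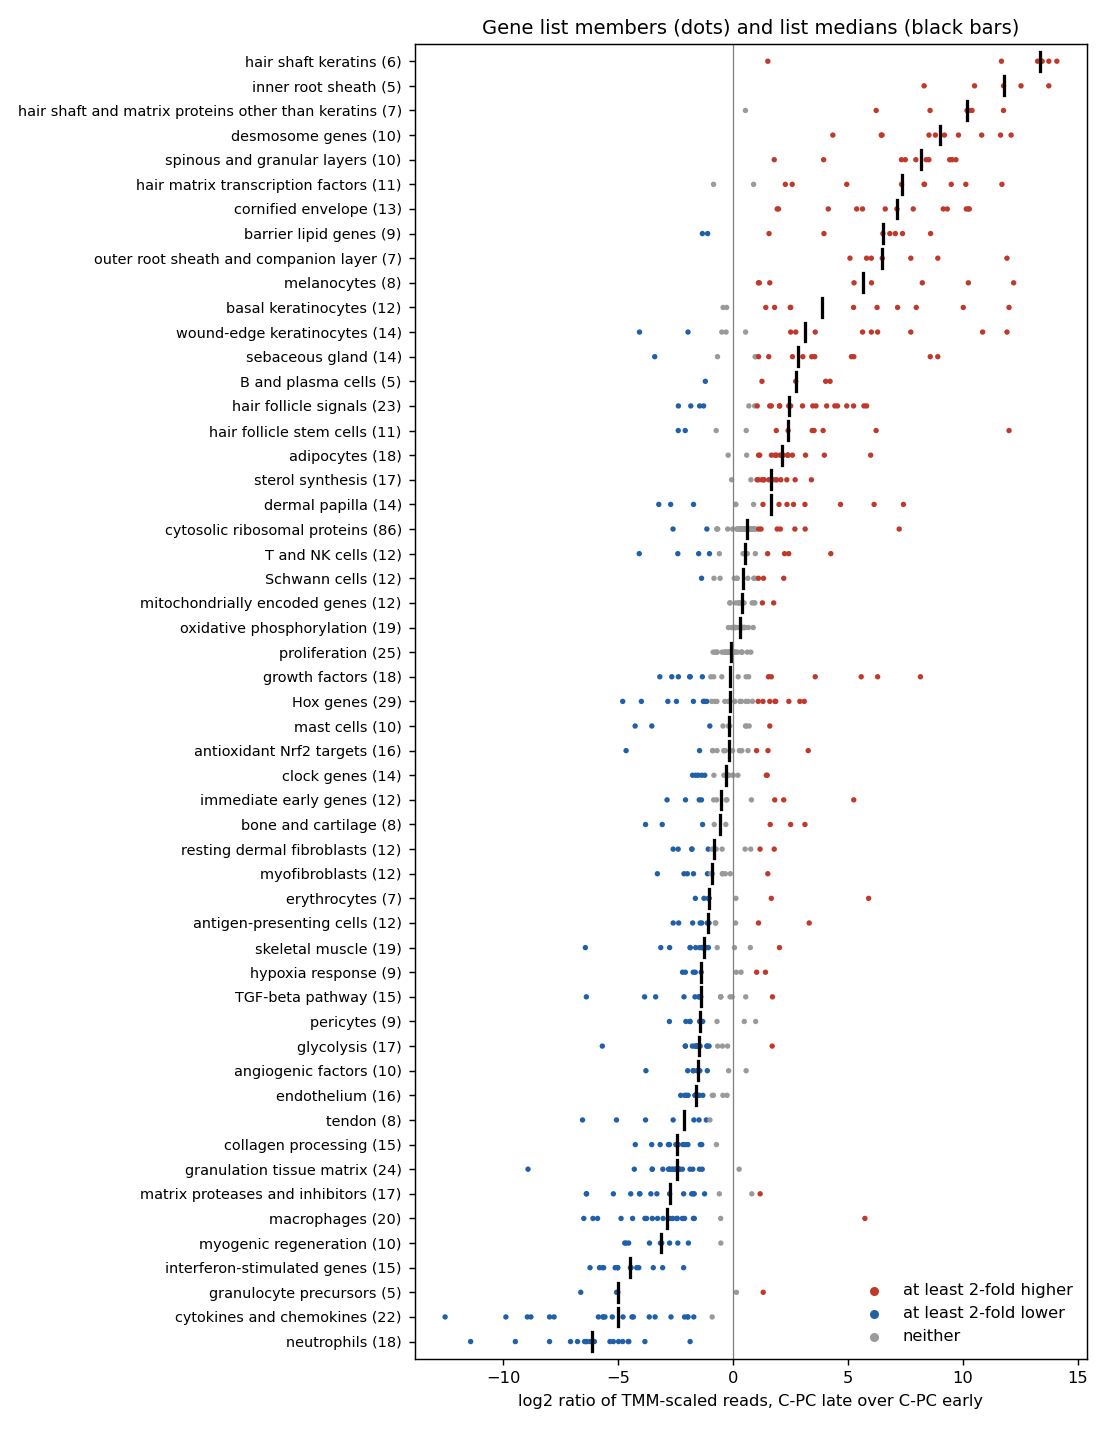
Log2 ratio of TMM-scaled reads, C-PC late over C-PC early (x axis), for the members of each gene list with at least 5 compared members (rows, number compared in brackets); dots are genes, black bars are list medians and colours give the call. Medians run from -6.13 for neutrophils to 13.34 for hair shaft keratins, and cell division genes lie around 0 with no member called.

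Keratinocyte genes were higher late from the basal layer to the surface. Of 12 basal genes, 10 were higher and none lower (median 3.87). Krt5 stood at 1.40 CPM early and 1439 late (10.01, 9.42 to 10.66), Krt14 at 1.95 and 486 (7.96) and Krt15 at 0.122 and 499 (12.00). Krt15, with 2 early reads, could not be called lower and stands in the list of follicle stem cells too. The part of follicle cells in the values of these keratinocyte lists was not tested. Trp63, the transcription factor that maintains the basal layer, had 36 and 5428 reads (7.15). Itga6 and Dst, which vessels, nerve or muscle also express, had 2205 and 1727 and 4960 and 4321 reads and were the 2 that did not pass. In the spinous and granular layers all 10 members compared were higher (median 8.17), with Krt1 at 9 and 3487 reads and Krt10 at 28 and 4745. Krt1, Krtdap, Ly6d, Calml3 and Grhl3 had fewer than 10 early reads and so could not be called lower. Dsg1a, Dsc1 and Krt77 were listed late only, with 13569, 11796 and 1658 reads. For the cornified envelope, the protein shell of surface cells, 13 of 13 members compared were higher (median 7.12). Among them Lor, Ivl and Tgm3 had fewer than 10 early reads and could not be called lower. Tgm3 is counted among hair shaft and matrix proteins too. Lor, which encodes loricrin, had 5 and 1210 reads (7.83), Ivl, which encodes involucrin, 4 and 2701 (9.31), and Sprr1a 16 and 20427 (10.23). Its other 9 members, with the filaggrin gene Flg at 440 reads late, were listed only in the late table.

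Desmosome genes, which rivet keratinocytes together, were higher in 10 of 10 members compared (median 8.99) and went from 0.00551% of the early reads to 0.963% of the late ones. Of these, Pkp1, Dsc3 and Dsg2 had fewer than 10 early reads and could not be called lower. Dsp, the plaque protein desmoplakin, had 12 and 55458 reads (12.09, 11.28 to 13.04), and Perp 39 and 36909 (9.80). Dsc3, a desmosomal cadherin, had 0 and 10075 reads, at least 3165-fold higher. Genes that make the lipids of the skin barrier were higher in 7 of 9: Elovl4, which elongates fatty acids, had 24 and 2869 reads (6.82), and Cers3, a ceramide synthase, 7 and 1225 (7.37). Cers3, Aloxe3, Cyp4f39 and Pnpla1 could not be called lower, with fewer than 10 early reads each. Of the 2 that were lower, Ugcg, which makes glucosylceramide in most tissues, gave -1.34.

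Genes that mark keratinocytes at a wound edge were split. Of 14 compared, 9 were higher and 2 lower (median 3.15). Krt17 had 6 and 24543 reads (11.91), Krt6a 11 and 2473 (7.73) and Krt16 7 and 479 (6.01), and all 3 are also keratins of the follicle's outer root sheath and companion layer. The urokinase receptor gene Plaur and Fosl1, an AP-1 factor, were lower, with 1540 and 97 and 309 and 84 reads. Serpinb2, Stfa3 and Hbegf differed by less than 2-fold. The growth factor list held 6 higher, 6 lower and 6 not called of 18 (median -0.14). Higher were Fgf22 with 2 and 601 reads (8.15), Epgn with 3 and 248, Tgfa with 55 and 2772 (5.57, 5.19 to 5.98), Areg with 22 and 277, Fgf10 with 40 and 134 and Ereg with 133 and 409. Those lower included Hgf with 301 and 35 reads (-3.19), Fgf7, Pdgfb and Igf1, the last with 3044 and 1276. Epgn, Tgfa, Areg and Ereg encode ligands of the EGF receptor, and the other such ligands of the list, Hbegf, Egf and Btc, gave -0.49, 0.22 and 0.67 and were not called.

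Hair follicle genes gave the highest ratios. Tchh (chromosome 3, 93442330 to 93449077, GRCm38), trichohyalin of the inner root sheath, had 22 reads early and 317456 late, the most of any gene compared, which is 1.34 and 18200 CPM (13.73, 13.13 to 14.41). The 5 inner root sheath genes compared were all higher, among them Krt28 with 4 and 24897 reads (12.52) and Padi3, an enzyme that modifies trichohyalin, with 10 and 15354 (10.50). Krt28, S100a3 and Gata3, with 4, 5 and 8 early reads, were compared only through their late reads and so could not be called lower. S100a3 is also counted among other shaft and matrix proteins, and Gata3 among transcription factors of the hair matrix. The hair shaft keratin genes Krt31 (chromosome 11, 100046646 to 100050551), Krt81 and Krt83 had 1, 2 and 3 reads early and 18386, 28783 and 30870 late. Krt31 had a ratio of 14.08, the highest before any pseudocount, with a wide interval of 11.60 to 19.38, since it rests on 1 early read. With a pseudocount of 2 reads it was 12.50, below Tchh at 13.61, Krt81 at 12.73 and Krt83 at 12.51. Krt33b, Krt86 and Krt87 had 1, 8 and 3 reads early and 11787, 27574 and 26193 late. All 6 compared members of the shaft list were higher: Krt31, Krt81, Krt83, Krt33b, Krt86 and Lrrc15. Lrrc15 is not a keratin and had 4400 and 13281 reads (1.51), and Krt87 is outside the list. The keratins of the list had fewer than 10 early reads, so they too could not be called lower. Hair keratins resemble each other, so reads may be shared between them. Other shaft and matrix proteins were higher in 6 of 7, with S100a3, a calcium-binding protein of the hair cuticle, at 5 and 18425 reads (11.76). S100a3, Padi1, Tgm3 and Lypd3 of this list had fewer than 10 early reads and could not be called lower. Other genes with the highest ratios were Serpinb5, a serpin of epithelia, with 1 and 6914 reads, and Hephl1, a copper enzyme of hair, with 1 and 6353.

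Most follicle structural genes lay outside the joint list, because they were listed in the late table only. The 2585 genes of that kind held 1239842 reads of the late C-PC library, 7.28% of it, against 0.0322% of the untreated late library. Among them 26 keratin genes held 535352 reads (3.14%) and 57 genes for keratin-associated proteins, which cross-link the hair shaft, 357313 (2.10%). The 5 with most reads were Krt71 (191153), Krt25 (103691) and Krt27 (65422) of the inner root sheath, Krtap7-1 (49232) and Prr9 (45427). No gene listed in a table had fewer than 2 reads over its 2 libraries, so these genes have no ratio here. The 2777 genes listed only early held 0.0554% of the early C-PC reads, led by Hmga2, a chromatin protein of growing cells, with 314 reads.

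Transcription factors of the hair matrix were higher in 9 of 11 members compared (median 7.32). Dlx3 and Foxn1, both needed for hair shaft formation, had 0 reads early and 10490 and 3542 late, at least 3296-fold and 1113-fold higher. Lef1, a nuclear partner of Wnt signalling, had 2 and 1522 reads (9.49), Gata3 of the inner root sheath 8 and 2687 (8.31), and Hr, the hairless gene, 26 and 8835 (8.32). Runx1 and Trps1 differed by less than 2-fold. The other 7 were listed late only, with Hoxc13, a regulator of hair keratins, at 3730 reads.

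Among follicle signals 17 of 23 were higher and 4 lower (median 2.42). The Wnt ligands Wnt10a, Wnt10b and Wnt11 had 12, 14 and 49 reads early and 657, 560 and 1597 late, and Axin2, a target of Wnt signalling, 53 and 943 (4.07). Shh, the hedgehog ligand of the matrix, had 28 and 361 reads (3.60, 3.05 to 4.21), and its targets Ptch1 and Gli1 gave 2.50 and 3.44. Bmp2 and Bmp4 gave 3.02 and 4.42, and the Notch pair Notch1 and Jag1 2.42 and 2.02. Fgf5, which ends the growth phase of hair in mice, had 23 and 1362 reads (5.80). Lower were Fgf7, Eda2r, Fst and Dkk2, at -2.38, -1.84, -1.46 and -1.29.

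Dermal papilla genes were mixed, with 8 of 14 higher and 3 lower (median 1.65). Corin, a protease of the papilla, had 11 and 818 reads (6.13), and Rspo4, a Wnt enhancer, 2 and 360 (7.41). Crabp1, Sox2 and Inhba were lower, with 922 and 104, 31 and 5, and 1150 and 369 reads. Of 11 stem cell genes of the follicle, 7 were higher and 2 lower. Lhx2, a factor of the bulge, had 13 and 1027 reads (6.22), Lgr5, a receptor on cycling stem cells, 163 and 908 (2.39), and Nfatc1, which is also an endothelial gene, 1199 and 300 (-2.08). Outer root sheath genes were higher in 7 of 7.

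Pigment cell genes were higher in 8 of 8 members compared (median 5.64), of which Tyr, Dct and Mc1r had fewer than 10 early reads and could not be called lower. Tyr, whose promoter is printed above, had 2 and 2549 reads (10.23, 8.38 to 13.28), Dct, a further enzyme of melanin synthesis, 2 and 10001 (12.20), and Pmel, the scaffold of the pigment granule, 18 and 5720 (8.23). Mitf and Sox10, the lineage factors, differed less, with 569 and 1328 reads (1.14) and 121 and 275 (1.10). Tyrp1 and Mlana were listed late only, with 5964 and 1013 reads.

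Of 14 sebaceous gland genes, 10 were higher and 1 lower. Elovl3 had 3 and 1212 reads (8.57), Scd1, a desaturase that fat cells share, 3782 and 23994 (2.58), and Plin2, a coat of lipid droplets also found in macrophages, 11557 and 1152 (-3.41). Fat cell genes were higher in 16 of 18 (median 2.13): Cfd, adipsin, had 705 and 11686 reads (3.97) and Adipoq, adiponectin, 298 and 1400 (2.15), while the insulin-responsive glucose transporter gene Slc2a4 had 401 and 366. Enzymes of sterol synthesis were higher in 15 of 17 (median 1.67). Lss, which closes the sterol rings, had 256 and 1760 reads (2.70, 2.51 to 2.89) and Hmgcs1, an early enzyme of the pathway, 1254 and 5598 (2.07). Srebf2, which encodes a regulator of the pathway, gave 0.77 and was not called.

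Most members of some groups differed little between the 2 libraries. None of 25 cell division genes was called, and their log2 ratios ran from -0.87 to 0.77 (median -0.11). Mki67, the marker of cycling cells, stood at 200.4 and 341 CPM (0.77), Top2a at 176 and 225 (0.36), and Plk1, a mitotic kinase, at 51.6 and 28.3 (-0.87). None of 19 nuclear genes of oxidative phosphorylation was called (median 0.31), and mt-Co1, encoded by mitochondria, had 122410 and 154146 reads (0.25). Cytosolic ribosomal protein genes had a median of 0.61, with 7 of 86 higher and 2 lower, and many of them have pseudogenes that can share reads. The members furthest from the median were Rps2 with 111 and 17576 reads (7.22), Rpl35a with 237 and 2205 (3.13), Rps27 with 976 and 6657 (2.69) and Rpl26 with 1599 and 277 (-2.62). These values are uncertain, and the part of shared reads in them was not tested. Rps2 had 3287 reads in the middle C-PC library and 6683, 5203 and 7801 in the untreated early, middle and late ones. Of 12 genes encoded by mitochondria, 2 were called higher, mt-Co3 at 174 and 446 reads and mt-Nd3 at 10 and 36. The elongation factor genes Eef1a1 and Eef2, among the genes with most reads late, gave 0.44 and 0.43. Each of the 4 Y-linked genes compared, Ddx3y, Kdm5d, Uty and Eif2s3y, differed by less than 2-fold. Schwann cell genes were called in 4 of 12, with 3 higher and 1 lower, and Mbp, a myelin protein, had 993 and 1179 reads. Over all genes compared 16.5% were called higher and 21.3% lower, so this count does not set the Schwann cell list apart.

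Red cell genes were lower in 4 of 7 and higher in 2: the globin gene Hbb-bs had 7474 and 2536 reads (-1.65), while Bpgm, which tunes oxygen release, had 353 and 1182 (1.66). Slc4a1 was higher too, with 2 and 126 reads (5.89, 4.01 to 8.95), and the globin gene Hba-a2, at 26 and 30, was not called. Globin genes resemble each other, so reads may be shared between them. Of 8 bone and cartilage genes compared, 3 were higher and 3 lower, with Comp, a cartilage and tendon matrix protein, at 291 and 22 reads and Alpl, a phosphatase, at 30 and 277. Among the genes with most reads early, Fth1, the ferritin heavy chain, had 87916 and 9977 (-3.23), and the lysosomal genes Psap and Ctsb gave -2.63 and -1.92.

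Further lists held differences in both directions, and of all genes compared 16.5% were called higher and 21.3% lower. Of 12 immediate early genes, which respond to stimuli within minutes, 3 were higher and 4 lower. Egr3 had 123 and 4953 reads (5.25, 4.99 to 5.52) and Atf3 768 and 111 (-2.88). Of 16 targets of the antioxidant factor Nrf2, 3 were higher and 2 lower, a smaller share called than over all genes. Among them Hmox1, heme oxygenase, had 29947 and 1259 reads (-4.66). Of 14 clock genes, 5 were lower and 2 higher, and the labels give no time of day. Among 29 Hox genes, which mark position along the body, 8 were higher and 8 lower. Of the 8 Hoxb genes compared 7 were higher and Hoxb4, at 0.56, was not called, with Hoxb8 at 44 and 398 reads (3.09) and Hoxb6 at 41 and 325 (2.90). Hoxc10, Hoxa10 and Hoxa11 were lower, with 349 and 67, 295 and 141 and 27 and 4 reads. Hoxc11 had 79 and 0, 27.9-fold lower with the 0 set to 3 reads. Hoxc13, of the same cluster as Hoxc10 and Hoxc11, was listed late only, with the 3730 reads given above.

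The untreated late and early libraries, which share no library with the C-PC pair, were compared in the same way. Of 16477 genes, 3838 (23.3%) were higher late and 4097 (24.9%) lower, and with scaling by total reads 2482 and 6299. Scaling by total reads in place of TMM moved the median of all genes in this pair by -0.56 on the log2 scale, and by 0.07 in the C-PC pair, so directions in the untreated pair are read only where they hold under both. With 1 library in each group the difference between the 2 treatments was not tested. Of the genes compared in both pairs, 864 were higher in both, 39.4% of those higher with C-PC and 25.0% of those higher without it. Lower in both were 1893 genes, 55.4% and 48.8% of the 2 sets. With the untreated pair scaled by total reads, 626 genes were higher in both (28.5% and 28.9%) and 2308 lower in both (67.6% and 38.4%).

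**Figure D3:**
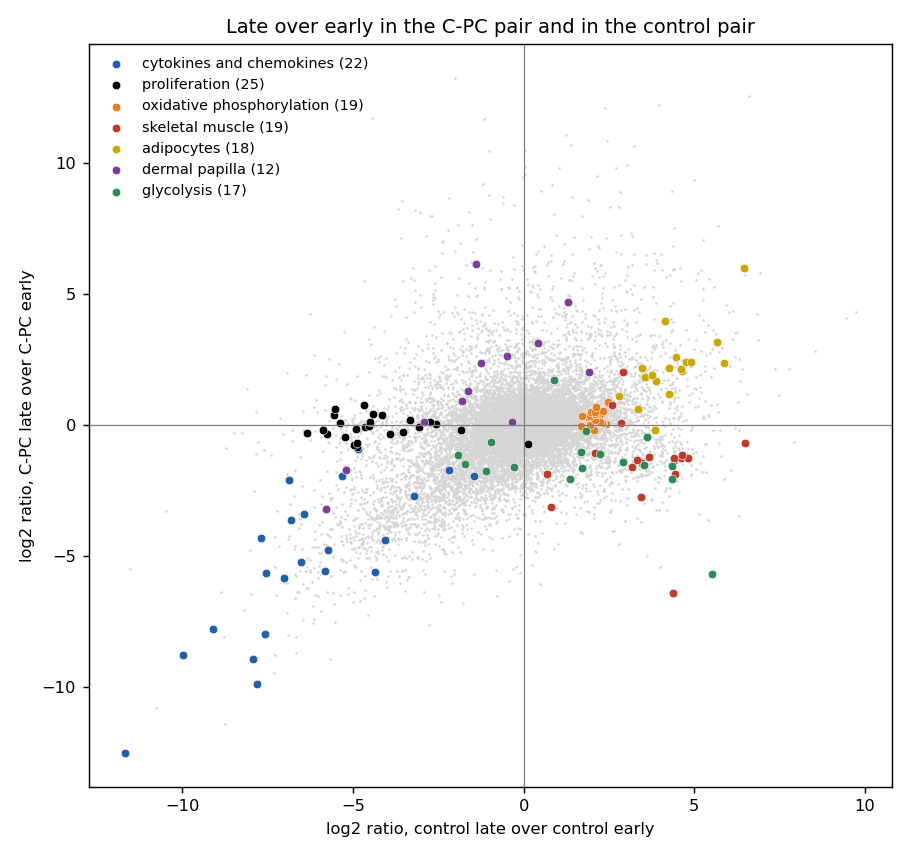
Log2 ratio of late over early in the untreated pair (control, x axis) against that in the C-PC pair (y axis), 1 library per treatment and stage; grey dots are genes with at least 10 reads in 1 library of each pair and colours mark 7 gene lists. Cytokine genes lie at lower left, adipocyte genes at upper right, skeletal muscle genes mostly at lower right, and cell division genes near 0 on the y axis and between -6.34 and -1.84 on the x axis apart from Aurka, at 0.12.

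Inflammation and matrix were lower late in both pairs. The median of cytokines and chemokines was -5.02 with C-PC and -6.66 without, that of interferon-stimulated genes -4.47 and -3.06, and that of granulation tissue matrix -2.45 and -3.60. Adipocyte genes had medians of 2.13 and 4.27. Other lists stood apart. Cell division genes had a median of -0.11 with C-PC and -4.64 without, where 24 of 25 were lower. Mki67 had 3294 and 5949 reads in the C-PC pair and 4459 and 107 in the untreated pair. Oxidative phosphorylation genes were near 0 with C-PC and 19 of 19 were higher without it (median 2.10), and skeletal muscle genes had medians of -1.28 and 3.45. Glycolysis had medians of -1.49 and 1.70. The untreated late library held 16.8% of its reads in skeletal muscle genes and the late C-PC library 0.261%, and the part of this in the values of the other lists was not tested.

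**Figure D4:**
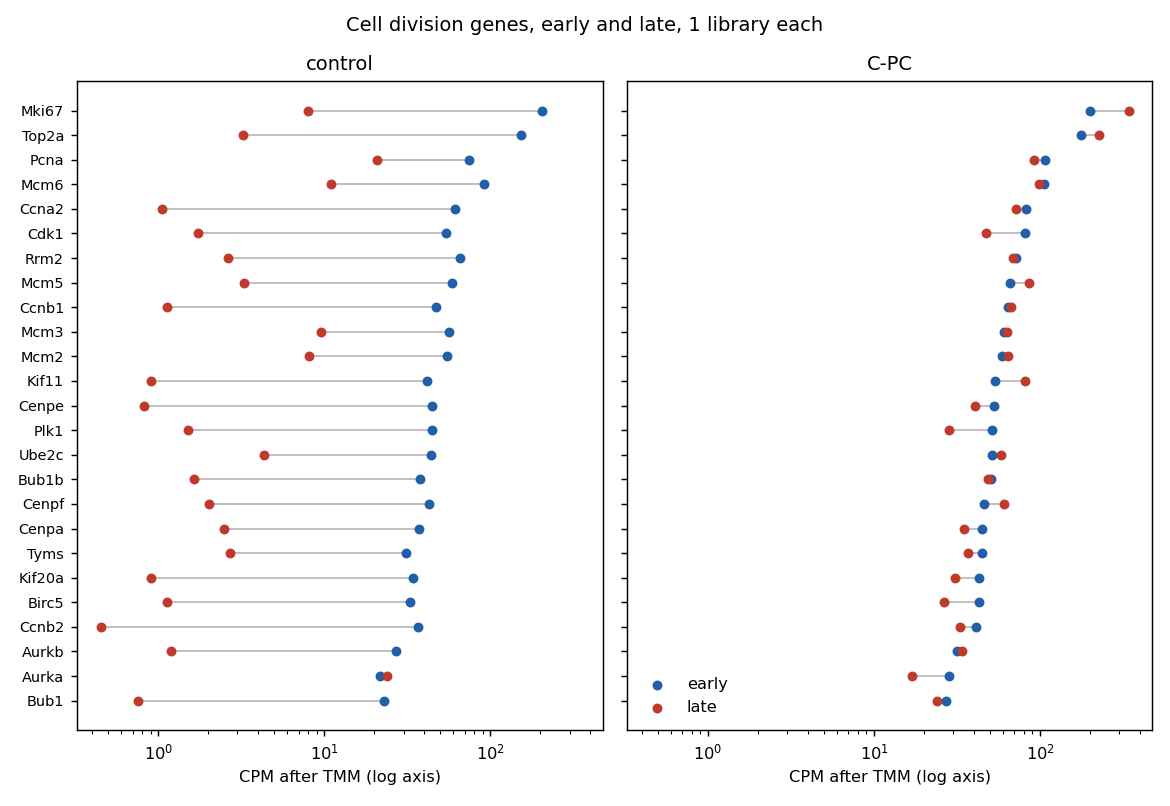
Levels of 25 cell division genes in CPM after TMM (log axis), early in blue and late in red, in the untreated pair (control, left) and the C-PC pair (right), 1 library per point. In the C-PC pair early and late lie within 2-fold of each other for each gene, and in the untreated pair late lies below early by at least 2-fold for 24 of 25, all but Aurka.

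Many keratinocyte genes had few reads in the early and late untreated libraries but not in the untreated middle library. Krt5 had 0 reads early, 5421 in the middle and 0 late without treatment, Krt14 had 0, 13548 and 2, Krt6a 0, 4455 and 0, and Dsp 5, 3547 and 16. For Krt14 and Krt6a the untreated middle library thus held more reads than the late C-PC library, with 8477 and 2473. Wound-edge genes took 0.170% of the untreated middle reads and 0.193% of the late C-PC reads, and basal keratinocyte genes 0.234% and 0.362%. Follicle genes were fewer there, with the inner root sheath list at 0.00814% against 4.87%. In the early and late untreated libraries Tchh had 6 and 1 reads, and Dlx3 had 36 and 1 against 0 and 10490 in the C-PC pair. Pkp3 and Pmel, also among the genes whose ratio was furthest above that of the untreated pair, had 39 and 2 and 21 and 1 reads. Those furthest below it were Gapdh and the muscle genes Myh4, Actc1, Prkag3 and Ampd1, with Actc1 at 1472 and 49 reads with C-PC and 2073 and 15366 without.

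The middle C-PC library lay outside the range of the early and late ones for several lists. At the early, middle and late stage granulation tissue matrix took 9.01%, 0.518% and 1.96% of reads, and skeletal muscle 0.665%, 17.2% and 0.261%. Neutrophil genes lay in order, at 0.271%, 0.00801% and 0.00651%. Cell division genes took 0.164%, 0.00796% and 0.182%. The inner root sheath list took 0.000291%, 0.000233% and 4.87%.

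**Figure D5:**
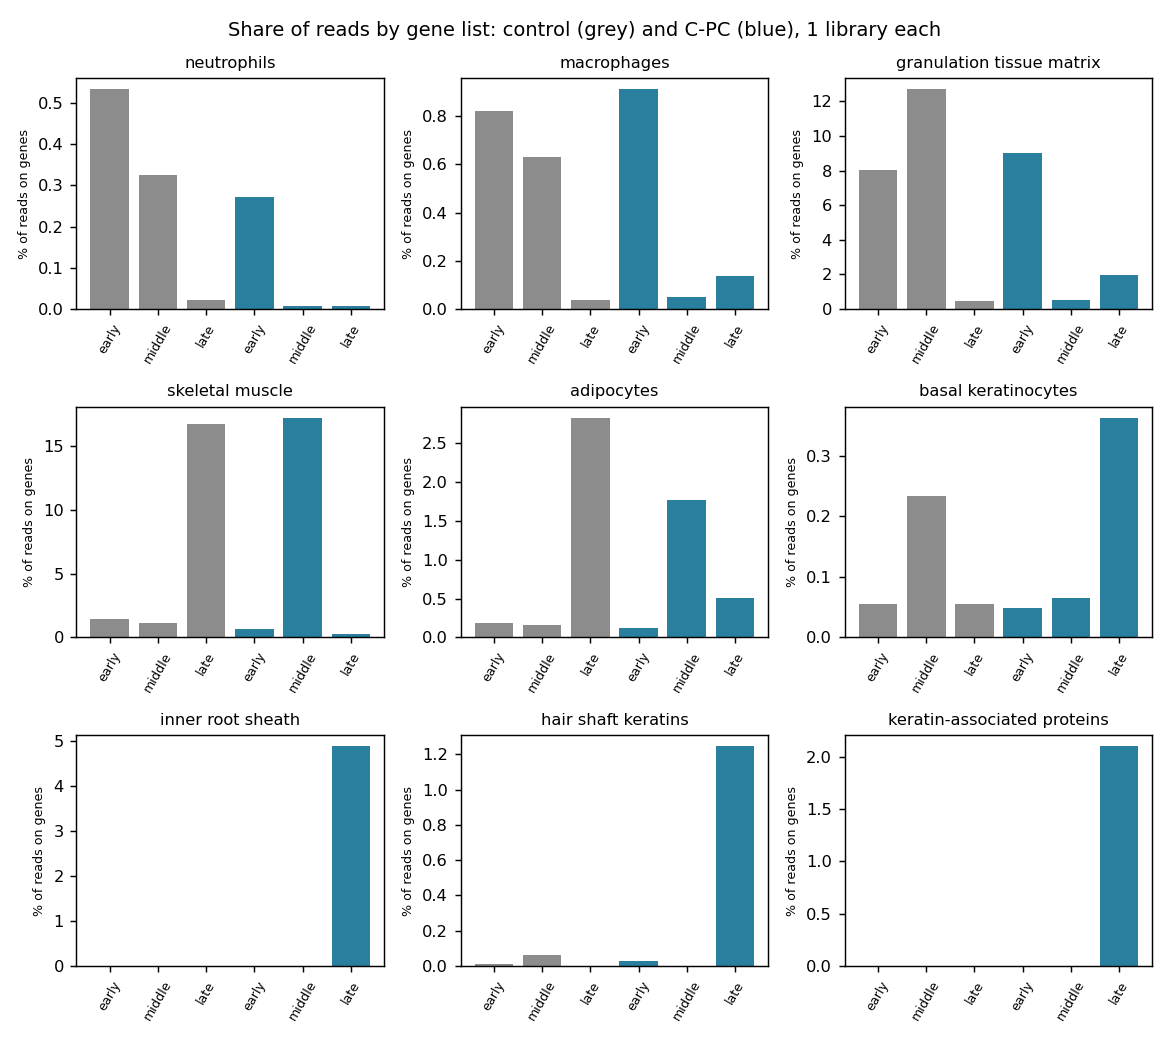
Percent of reads on genes taken by 9 gene lists (panels) in the early, middle and late libraries of untreated (control, grey) and C-PC wounds (blue), 1 library per bar. The 3 hair follicle lists in the bottom row reach 4.87%, 1.25% and 2.10% in the late C-PC library, and skeletal muscle is highest in the middle C-PC and late untreated libraries.

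A fit over all 6 libraries gave the only p-values the design allows, for late against early over both treatments. Limma on log2 CPM with stage and treatment as terms left 2 residual degrees of freedom, and its error is how far the stage difference varied between treatments. Of 16595 genes tested, 0 were higher and 0 lower at an adjusted p under 0.05 (0% each), with a smallest adjusted p of 0.773. At an unadjusted p under 0.05, 240 genes (1.45%) were higher and 826 (4.98%) lower. The smallest p-values among higher genes were those of Aldh3b2, Golga7b, Elovl6, Tenm4 and Wnt4, and among lower genes those of Prg4, Thbs4, Chil3, Abi3bp and Ifit1. Prg4, lubricin of joints and tendon sheaths, had 5969 and 43 reads early and late with C-PC and 30701 and 154 without (-6.95, SE 0.83, limma adjusted p = 0.773). Elovl6, a fatty acid elongase, had 238 and 2715 reads with C-PC and 277 and 1763 without (3.46, SE 0.53, limma adjusted p = 0.773). The edgeR quasi-likelihood test also called 0 genes, with 228 higher and 689 lower at an unadjusted p under 0.05, and DESeq2 called 235 higher and 426 lower. Leaving out 1 library moved the unadjusted limma counts by over 1.5 times in each case. Without the early, middle and late C-PC library they were 10 higher and 26 lower, 666 and 1537, and 868 and 1249. Without the early and middle untreated library they were 71 and 238, and 702 and 1612, and without the late untreated library higher genes outnumbered lower ones, at 707 and 392.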

How the data were processed

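RNA sequencing libraries of mouse skin were compared, 1 per treatment and stage. Per the labels' protocols they were made from total RNA with a kit that does not mark strand, so overlapping and antisense genes cannot be separated. For the aligner and the counter, names and versions were not given in sources used here. The submitters' processing notes name only hg38, a human build, while the tables hold mouse identifiers and GRCm38 coordinates.

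The authors deposited 1 table per stage, whose values are a signal: read counts scaled to a common size of the 2 libraries. Per the file headers, the tables also hold log2 fold changes and p-values of treatment within a stage, not used here. Whole reads were recovered from the spacing of the values: 100% of values came out whole within 0.1 read. The design foresaw recovered reads, since the tables were scaled separately. Depth was 15863637 to 18028674 reads per library, and intervals cover counting error only.

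The 2 C-PC libraries were scaled together by TMM (edgeR 4.0.16). Per gene, the log2 ratio late over early was given with an exact 95% conditional binomial (Clopper-Pearson) interval (scipy). Genes with at least 10 reads in 1 library were compared, and a library at 0 was set to 3 reads. Folds given for such genes rest on that setting and are not limits of their intervals. Limma 3.58.1 (trend, robust, prior count 2, edgeR's expression filter, Benjamini-Hochberg adjustment) was fitted on log2 CPM of recovered reads over 6 libraries, for genes listed in all 3 tables. Scripts were tested on simulated data. Alternatives were other scalings, read minimums, folds and pseudocounts, edgeR's quasi-likelihood test and DESeq2 1.42.0, and leaving out each library.

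The comparison and the 55 gene lists were chosen with earlier results of these data known. Lists are described by counts and medians beside those of all genes. Named genes follow a rule: the 10 largest and 10 smallest ratios of coding genes that average 5 CPM or more (Gm and Rik symbols left out), genes with most reads, up to 4 members per list and those needed to account for it, the 5 largest gaps to the untreated pair each way, the 5 smallest p-values each way and the 5 late-only genes with most reads. Further members are named to show a list's spread, after their values were seen. Promoters are from RefSeq (GRCm38.p6). Some members of the lists are counted but not reported here by name.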

Additional observations from a re-analysis of the deposited data

Results flagged for a closer look

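Lists whose median log2 ratios had opposite signs in the C-PC and the untreated pair, each at least 1 in size, are given here; the differences were not tested, since each group has 1 library. With C-PC and without it the medians were -1.46 and 1.28 for pericytes, 3.15 and -2.80 for wound-edge keratinocytes, 13.34 and -2.02 for hair shaft keratins, 1.65 and -1.32 for the dermal papilla, -1.28 and 3.45 for skeletal muscle, -1.04 and 2.06 for erythrocytes, and -1.49 and 1.70 for glycolysis. Under scaling by total reads the untreated pericyte median was 0.71, less than the size of 1 asked for here. In the untreated pair the hair shaft keratin and wound-edge medians rest on 3 and 7 genes with at least 10 reads. Those 3 are Krt83 with 20 reads early and 0 late, Krt86 with 11 and 0, and Lrrc15 with 1751 and 19. Lrrc15 is not a keratin, and the ratios of Krt83 and Krt86 rest on a late library at 0 being set to 3 reads.

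Genes listed only in the late table, which the comparison could not use, held 7.28% of the late C-PC reads and 0.0322% of the late untreated reads.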

How the results depend on the processing

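All 20 genes with the highest and lowest ratios kept their direction and call under the 7 alternative settings tried. At a threshold of 4-fold in place of 2-fold, 1477 genes were higher and 1747 lower in the C-PC pair; the other settings left both counts within 1.5 times. List medians differed by less than 1.5-fold from the values given in 208 of 216 cases. Of 55 lists, bone and cartilage (-0.57 to 0.14) and Hox genes (-0.15 to 0.22) changed sign with a minimum of 50 reads. With scaling by total reads, 2482 genes were higher and 6299 lower in the untreated pair, against 3838 and 4097 with TMM. That scaling, applied to the overlap of the 2 pairs after seeing the data, gave 626 genes higher and 2308 lower in both. It also turned the untreated medians of endothelium (0.15 to -0.41), sterol synthesis (0.25 to -0.31) and hair follicle stem cells (0.13 to -0.43). The same held for hair matrix transcription factors (0.17 to -0.39), growth factors (0.16 to -0.40) and sex-linked genes (0.16 to -0.40). In the fit over both treatments, limma called 0 genes with other scaling, filter, prior count or no treatment term, and between 0 and 0 when each library was left out in turn, with smallest adjusted p-values of 0.0618 to 1. DESeq2 called 235 higher and 426 lower, among them the 10 genes named from this fit; the cause was not tested. No paired analysis was possible because all libraries carry the same replicate number; the fit over both treatments instead compares stages within treatment, through its treatment term. Counts of 0 to 3 reads limit the ratios of genes nearly absent in 1 library, whose intervals span several log2 units.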
